A study of Homo sapiens with 36 samples.

Results

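The 41 genes described here are NFE2L2, which encodes the transcription factor NRF2, its partners and inhibitors, and a set of genes for glutathione, thioredoxin, superoxide, NADPH, heme, iron and detoxification. They were taken from a named list of NRF2 pathway and antioxidant defence genes by matching gene symbols to Ensembl identifiers. No measured value entered the matching rule, but the list was chosen with earlier results of these data known. Each of the 41 genes matched 1 of the 74628 genes in the count table. The cells were Jurkat, an established human line from a T-cell leukaemia, in a version with stable dCas9-VP64 that was labelled mCherry+. In dCas9-VP64 an activation domain is joined to a Cas9 that cannot cut DNA, and a guide RNA places it at a chosen promoter. Every group carried this activator and a lentiviral guide vector and had been selected with puromycin for 3 days. The groups differed in the guide, a single guide targeting RELA (sgRELA) or a control labelled non-targeting (sgControl), and in the day of harvest after transduction, day 5, 6 or 7. Each of the 6 groups had 3 biological replicates, and 2 RamDA-seq libraries were made from 100 pg of total RNA of each, 36 libraries in all. RamDA-seq starts from total RNA and reads transcripts along their length. Both libraries of a sample were summed, so that the comparisons rest on 18 RNA samples. Since 1 guide stood for RELA and 1 for the control, an effect of the guide and an effect of RELA cannot be told apart, and a day of harvest and a handling batch of that day cannot be told apart either.

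NRF2 is held in the cytoplasm by KEAP1, which delivers it to a ubiquitin ligase for degradation. Electrophiles and oxidants modify KEAP1, and NRF2 then enters the nucleus, pairs with a small Maf protein (MAFF, MAFG or MAFK) and binds antioxidant response elements. BACH1 competes for the same elements and represses them, and SQSTM1 (p62) can draw KEAP1 into autophagy. The classical targets make glutathione, run the thioredoxin cycle, supply NADPH, break down heme, store iron and detoxify quinones and epoxides. RELA encodes the p65 subunit of NF-kB, a factor that is also known to drive SOD2 and FTH1 in many cells.

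Start-site sequences are shown for EPHX1, the member that differed between the guides, and for TXNRD1, one of the members that rose from day 5 to day 7 with both guides. They are from RefSeq on GRCh38.p14, plus strand, 5′ to 3′, from 160 bases before the annotated start base to 10 after it. Capitals mark a match on either strand to the core of the antioxidant response element, TGACNNNGC, or, in window 1 of EPHX1, to the kappaB consensus.
EPHX1 window 1, chr1:225809964-225810134: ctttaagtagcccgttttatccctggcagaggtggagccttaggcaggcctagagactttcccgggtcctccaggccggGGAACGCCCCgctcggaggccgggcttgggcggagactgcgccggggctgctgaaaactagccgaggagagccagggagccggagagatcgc
EPHX1 window 2, chr1:225825194-225825364: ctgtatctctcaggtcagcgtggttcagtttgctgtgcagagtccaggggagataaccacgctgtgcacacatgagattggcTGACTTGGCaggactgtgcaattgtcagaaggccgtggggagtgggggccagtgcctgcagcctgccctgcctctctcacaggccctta
TXNRD1 window 1, chr12:104215619-104215789: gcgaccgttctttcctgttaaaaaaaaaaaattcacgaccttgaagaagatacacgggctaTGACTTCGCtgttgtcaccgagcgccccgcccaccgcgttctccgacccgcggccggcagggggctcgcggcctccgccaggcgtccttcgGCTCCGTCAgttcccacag
TXNRD1 window 2, chr12:104286872-104287042: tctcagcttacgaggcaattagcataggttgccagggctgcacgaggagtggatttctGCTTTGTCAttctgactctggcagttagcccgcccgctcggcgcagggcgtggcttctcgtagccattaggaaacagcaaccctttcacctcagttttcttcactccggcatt
In window 1 of EPHX1 the kappaB match lay from -81 to -72, counted from the start base as 0, and in window 2 the element core lay from -78 to -70. The third EPHX1 window in the table held neither motif. TXNRD1 had element cores from -99 to -91 and from -8 to 0 in window 1 and from -102 to -94 in window 2. The table held windows of 300 bases, 250 before the start and 50 after it, for 31 of the 41 genes, 46 windows in all. The element core was found in 12 of these 46 windows (26.1%) and in 13.3% of all 35116 windows of the same length. The 11 genes with it were KEAP1, MAFF, GCLM, GSTP1, TXNRD1, PGD, ME1, EPHX1, CBR1, PIR and ABCC4. The kappaB consensus was found in 4 of the 46 windows (8.70%), those of BACH1, MAFF, GSTP1 and EPHX1, and in 11.3% of all windows. In the 1 window that held both motifs, that of GSTP1, they did not overlap. Of the genes called between day 7 and day 5 in both guides, 8 had a window. Of these 8, 1 held the element core, TXNRD1, and 0 held the kappaB consensus. A match is a description of letters, and no binding was measured.

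Library totals were 7586205 to 16124473 counts, and RNA sample totals 18769530 to 29503934. The targeted gene RELA had 20.2 to 39.3 CPM in the 9 sgControl samples and 119.8 to 318 CPM in the 9 sgRELA samples, where CPM is the count scaled to a common library size after TMM correction. Its log2 fold change was 3.14 ± 0.14 (SE) on day 5 and 2.36 ± 0.14 (SE) on day 7. All 11 T-cell markers examined were present at a mean of 1 CPM or more, and their summed level was 2498 to 3391 CPM on days 5 and 6 of sgControl, 2677 to 3217 CPM on those days of sgRELA and 3533 to 3802 CPM on day 7. Mitochondrial genes took 8.33% to 9.87% of counts on day 6, 7.43% to 9.28% on day 5 and 7.41% to 7.85% on day 7. The part of either shift in the day comparisons was not tested. Of 3 B-cell markers, CD79A alone passed a mean of 1 CPM, and MS4A1 and CD79B were at or near 0. The summed levels of 4 myeloid, 4 epithelial and 4 erythroid markers reached at most 2.84, 1.68 and 0.0914 CPM, and that of 4 fibroblast markers, in effect COL1A1 alone, 1.95 to 10.3 CPM.

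Of the 41 genes, 37 passed the filter on low counts and were tested. The other 4 were nearly silent: HMOX1, the inducible heme oxygenase and a textbook NRF2 target, had 11 counts over all 36 libraries, ME1 (malic enzyme) had 4, PIR (pirin) had 3 and CBR1 (a carbonyl reductase) had 1. A pair of further targets was low but tested. NQO1, the quinone reductase that is the usual marker of NRF2 activity, had 1.58 to 6.28 CPM over the 18 samples, and OSGIN1, an NRF2-responsive growth inhibitor, had 2.16 to 5.12 CPM. FTH1, the ferritin heavy chain, had 174 counts over all libraries, whereas 21 annotated FTH1 pseudogenes together held 6790 counts. Because 62.4% of the FTH1 exon length overlaps other annotated genes and the handling of shared reads is not given in the sources used here, the FTH1 level is uncertain. The same applies to SRXN1 (sulfiredoxin, 85.0% of exon length shared) and in part to PRDX1 (24.9%). Smaller shares were found for SQSTM1 (22.0%), NFE2L2 (20.9%), CBR1 (18.9%), MAFK (18.1%), NQO1 (17.7%), PRDX2 (14.1%) and OSGIN1 (13.9%), among others.

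Divided by exon length, levels of the genes with a length in GENCODE v29 differed widely (40 genes, without SOD2, whose identifier is not in that annotation). On this scale FTL, the ferritin light chain, was highest at 104 ± 18.2 CPM per kilobase of exon (SD over 18 RNA samples, groups mixed). TXN (thioredoxin) followed at 70.8 ± 18.7, PGD (6-phosphogluconate dehydrogenase) at 64.6 ± 6.06 and SOD1 at 59.9 ± 11.7. The ranges of TXN, PGD and SOD1 over the 18 samples overlapped. BACH1 (13.3 ± 1.26), KEAP1 (11.6 ± 1.86) and NFE2L2 (11.4 ± 1.25) lay in the middle of the order, with overlapping ranges. Differences between genes were not tested. NQO1 stood at 1.06 ± 0.427 CPM per kilobase. The cells carried transcripts of the regulators and of the thioredoxin, superoxide and pentose phosphate genes, with HMOX1 and NQO1 near the bottom of the list.

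**Figure D1:**
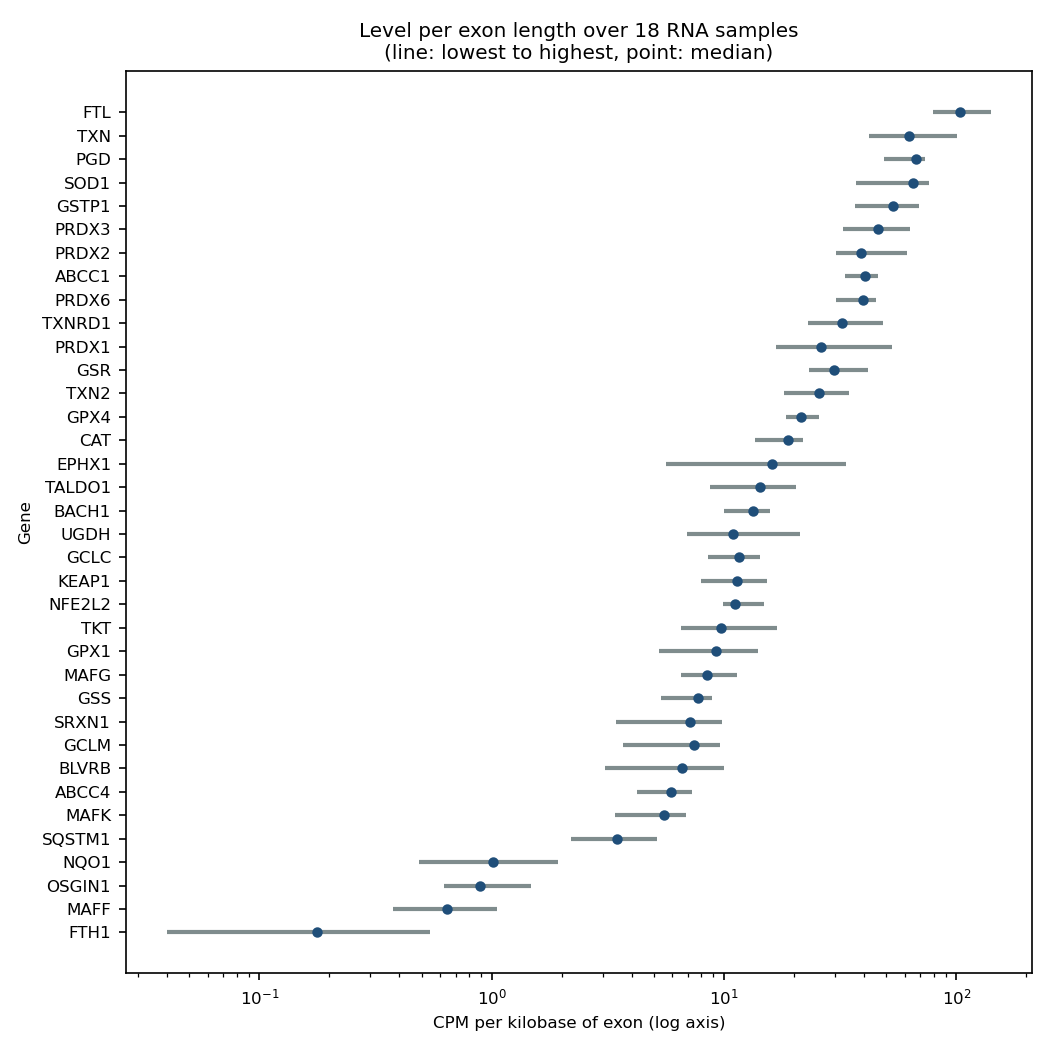
Level of each gene with at least 1 count in every RNA sample, in CPM per kilobase of exon on a log axis. Lines run from the lowest to the highest of 18 RNA samples and points are medians, with FTL at the top and NQO1, OSGIN1, MAFF and FTH1 at the bottom.

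The first set of comparisons asked how the genes changed with the day of harvest within each guide. On day 6 more of the called genes were lower than higher, and on day 7 more were higher than lower. From day 5 to day 6, 9 of 37 genes passed an adjusted p of 0.05 in sgControl, 2 higher and 7 lower. Of all 27553 genes tested, 8.87% passed there, 3.29% higher and 5.58% lower. In sgRELA 6 of 37 passed, 2 higher and 4 lower, beside 6.91% of all genes (2.57% higher, 4.34% lower). From day 6 to day 7, 17 passed in sgControl, 13 higher and 4 lower, beside 14.6% of all genes (8.25% higher, 6.31% lower). In sgRELA 13 passed that step, 11 higher and 2 lower, beside 12.2% (7.21% higher, 5.02% lower). From day 5 to day 7, 10 passed in sgControl, 7 higher and 3 lower, beside 13% (6.65% higher, 6.36% lower). In sgRELA 13 passed over the same days, 10 higher and 3 lower, beside 12.4% (6.35% higher, 6.06% lower). The 3 comparisons within a guide share samples and are given side by side. The shares of all genes were not matched to the 37 genes for count level, and its part in these counts was not tested. When 1 of the 6 samples of a comparison was left out in turn, 5 of the 9 calls, 10 of the 17 and 9 of the 10 held in every fit in sgControl, in the order given, and 4 of the 6, 9 of the 13 and 8 of the 13 in sgRELA. In bulk RNA, fewer cells with a transcript and less of it per cell cannot be told apart.

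The median log2 fold change of the 37 genes moved the same way in both guides. In sgControl it was -0.14 from day 5 to day 6, 0.29 from day 6 to day 7 and 0.14 from day 5 to day 7, where the medians of all genes were 0.04, -0.07 and -0.01. In sgRELA it was -0.09, 0.21 and 0.15, beside 0.03, -0.06 and -0.01 for all genes. The summed level of the 41 genes was 2681 ± 57.5 CPM on day 5, 2351 ± 63.7 CPM on day 6 and 3028 ± 26.2 CPM on day 7 in sgControl (SD, n = 3 each). In sgRELA it was 2679 ± 36.7, 2480 ± 31.2 and 3068 ± 34.0 CPM. In all, 23 of the 37 tested genes were called in at least 1 of these 6 comparisons. The 14 called in none were NFE2L2, BACH1, MAFG, MAFF, GCLC, GSS, GPX4, TXN2, SRXN1, FTH1, NQO1, ABCC1, ABCC4 and OSGIN1. The matching share of all genes was not computed, so the 23 are not set against other genes.

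**Figure D2:**
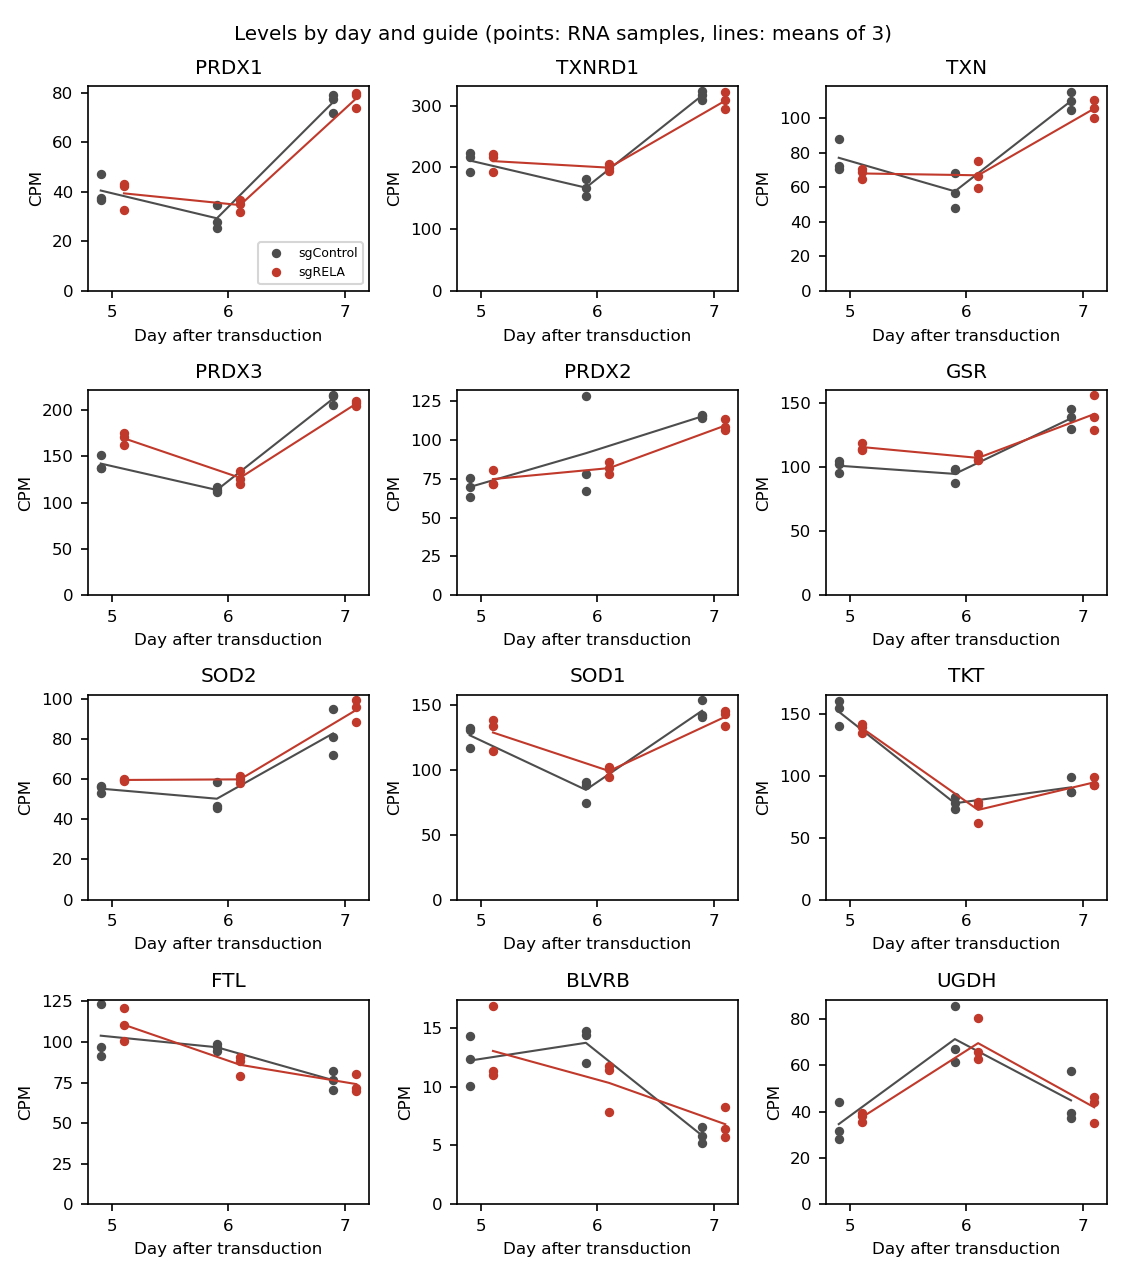
CPM of 12 genes by day after transduction, each point 1 RNA sample and each line the mean of 3, grey for sgControl and red for sgRELA. PRDX1, TXNRD1 and TXN are highest on day 7 in both guides, TKT is highest on day 5 and UGDH on day 6.

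Among the 7 regulators, none passed the test in both guides in the same comparison. NFE2L2 itself had 77.7, 71.3 and 76.3 CPM on day 5, 61.3, 65.3 and 69.3 CPM on day 6 and 63.4, 61.9 and 59.4 CPM on day 7 in sgControl. NFE2L2 in sgRELA had 73.3, 89.2 and 69.0 CPM on day 5, 72.7, 62.2 and 61.6 CPM on day 6 and 66.6, 67.2 and 63.9 CPM on day 7. Its level lay between 59.4 and 89.2 CPM throughout, with day 5 above day 7 in each sample of both guides, but the log2 fold changes from day 5 to day 7, -0.29 ± 0.11 (SE, adjusted p = 0.0885) in sgControl and -0.23 ± 0.11 (SE, adjusted p = 0.202) in sgRELA, did not pass. KEAP1, the inhibitor, had 45.9, 43.7 and 39.4 CPM on day 5, 47.8, 31.7 and 39.0 CPM on day 6 and 57.7, 53.8 and 47.0 CPM on day 7 in sgControl. KEAP1 in sgRELA had 41.9, 41.5 and 39.0 CPM on day 5, 29.8, 39.5 and 40.6 CPM on day 6 and 44.7, 49.7 and 49.5 CPM on day 7. KEAP1 rose from day 6 to day 7 in sgControl by 0.42 ± 0.14 (SE, adjusted p = 0.0484), with day 6 replicate 1 overlapping day 7, and the value in sgRELA was 0.39 ± 0.15 (SE, adjusted p = 0.0818). BACH1, the repressor, had 122, 98.9 and 106 CPM on day 5, 77.1, 103 and 102 CPM on day 6 and 98.9, 98.2 and 103 CPM on day 7 in sgControl. BACH1 in sgRELA had 97.1, 104 and 113 CPM on day 5, 97.6, 107 and 93.1 CPM on day 6 and 108, 96.1 and 117 CPM on day 7. The BACH1 values overlapped between all days, and its day 7 to day 5 log2 fold changes were -0.12 ± 0.11 and 0.03 ± 0.11 (SE). Of the small Maf genes, MAFK rose from day 6 to day 7 in sgRELA by 0.54 ± 0.18 (SE, adjusted p = 0.0486), with 0.52 ± 0.18 (SE, adjusted p = 0.0509) in sgControl, while MAFG and MAFF passed in no comparison. SQSTM1 rose from day 5 to day 7 in sgRELA by 0.52 ± 0.18 (SE, adjusted p = 0.0479), with 0.34 ± 0.18 (SE, adjusted p = 0.23) in sgControl. The KEAP1 call was lost without day 6 replicate 2 or 3 or day 7 replicate 1 or 2, with an adjusted p of up to 0.244. The MAFK call was lost without day 6 replicate 1 or 3 or day 7 replicate 1, 2 or 3, with an adjusted p of up to 0.259. The SQSTM1 call was lost without day 5 replicate 2 or 3 or day 7 replicate 1, 2 or 3, with an adjusted p of up to 0.233. With library 1 of each RNA sample alone, the KEAP1 value was 0.20 (adjusted p = 0.768). DESeq2 called NFE2L2 lower on day 7 in sgControl (-0.28, adjusted p = 0.0475).

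Thioredoxin passes electrons from NADPH to the peroxiredoxins and other proteins. Of the 8 thioredoxin and peroxiredoxin genes, 5 rose from day 5 to day 7 in sgControl and 5 in sgRELA, the same 5 genes in both, and none fell. Of all genes, 6.65% rose in sgControl and 6.35% in sgRELA, and 8.11% passed in both guides with the same sign in either direction. The median log2 fold change of the 8 was 0.55 in sgControl and 0.42 in sgRELA. TXNRD1, the cytosolic thioredoxin reductase, had 193, 223 and 218 CPM on day 5, 154, 181 and 166 CPM on day 6 and 324, 318 and 309 CPM on day 7 in sgControl. TXNRD1 in sgRELA had 221, 193 and 216 CPM on day 5, 206, 194 and 199 CPM on day 6 and 309, 322 and 294 CPM on day 7. Every day 7 sample lay above every day 5 and day 6 sample of its guide. TXNRD1 rose from day 5 to day 7 by 0.58 ± 0.08 (SE, adjusted p = 6.06e-06) in sgControl and by 0.55 ± 0.08 (SE, adjusted p = 1.49e-05) in sgRELA. TXN, the thioredoxin it reduces, had 88.2, 72.4 and 70.7 CPM on day 5, 48.0, 68.1 and 56.8 CPM on day 6 and 109.9, 115 and 105 CPM on day 7 in sgControl. TXN in sgRELA had 68.9, 70.4 and 64.6 CPM on day 5, 59.3, 66.5 and 75.0 CPM on day 6 and 106, 100.1 and 111 CPM on day 7. TXN was again highest in all day 7 samples of each guide, and rose from day 5 to day 7 by 0.51 ± 0.12 (SE, adjusted p = 0.00322) and by 0.64 ± 0.12 (SE, adjusted p = 0.000366). Both genes were lowest on day 6 in sgControl, where TXNRD1 fell from day 5 by 0.34 ± 0.08 (SE, adjusted p = 0.00732) and TXN by 0.42 ± 0.12 (SE, adjusted p = 0.0239). In sgRELA the same step was -0.08 ± 0.08 for TXNRD1 and -0.02 ± 0.12 for TXN (SE), not called. The TXN call from day 5 to day 6 was lost without day 5 replicate 1 or day 6 replicate 1 or 3, with an adjusted p of up to 0.164, and, at an adjusted p of 0.0505, without the 2 sgControl libraries with few detected genes (library 1 of day 5 replicate 2 and of day 6 replicate 1). With library 2 of each sample alone, the TXN step was -0.016 (adjusted p = 0.981), and with library 1 alone -0.86 (adjusted p = 0.0561). The TXNRD1 fall was not called with library 1 alone (-0.27, adjusted p = 0.392). The TXN rise from day 6 to day 7 in sgRELA was 0.41 (adjusted p = 0.0641) with library 2 alone. From day 5 to day 7 the TXN call was lost in 1 of 13 alternatives in each guide. The adjusted p there reached 0.44 in sgControl and 0.0968 in sgRELA. TXN2, the mitochondrial thioredoxin, and SRXN1 passed in no comparison.

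Peroxiredoxins reduce peroxides, and PRDX1, PRDX2 and PRDX3 draw on thioredoxin to do so. PRDX1 had 37.5, 36.8 and 47.3 CPM on day 5, 25.5, 34.5 and 27.8 CPM on day 6 and 79.0, 77.7 and 72.1 CPM on day 7 in sgControl. PRDX1 in sgRELA had 43.2, 42.3 and 32.6 CPM on day 5, 36.9, 35.1 and 31.9 CPM on day 6 and 74.0, 79.3 and 80.1 CPM on day 7. Day 7 values were well above those of the other days, with no overlap. PRDX1 rose from day 5 to day 7 by 0.91 ± 0.14 (SE, adjusted p = 1.58e-05) in sgControl and by 0.98 ± 0.14 (SE, adjusted p = 5.09e-06) in sgRELA, the highest values among the 37 genes in this comparison. PRDX3, the mitochondrial form, had 138, 138 and 151 CPM on day 5, 111, 117 and 113 CPM on day 6 and 206, 216 and 216 CPM on day 7 in sgControl. PRDX3 in sgRELA had 171, 176 and 162 CPM on day 5, 119.9, 135 and 126 CPM on day 6 and 207, 204 and 209.7 CPM on day 7. The lowest PRDX3 values were on day 6 and the highest on day 7 in each guide, with no overlap. PRDX3 fell from day 5 to day 6 by 0.32 ± 0.08 (SE, adjusted p = 0.00876) in sgControl and by 0.42 ± 0.08 (SE, adjusted p = 0.000872) in sgRELA. From day 5 to day 7 it rose by 0.58 ± 0.08 (SE, adjusted p = 5.17e-06) and by 0.29 ± 0.08 (SE, adjusted p = 0.0145). PRDX2 had 63.5, 75.6 and 70.0 CPM on day 5, 129, 78.4 and 67.4 CPM on day 6 and 114, 116 and 116 CPM on day 7 in sgControl. PRDX2 in sgRELA had 71.8, 71.7 and 80.9 CPM on day 5, 81.7, 77.8 and 86.1 CPM on day 6 and 109, 106 and 113 CPM on day 7. Its day 7 samples lay above all day 5 samples of their guide, while day 6 replicate 1 of sgControl exceeded every day 7 sample. That sample's library 1, one of the 2 with few detected genes, had 198 CPM of PRDX2. PRDX2 rose from day 5 to day 7 by 0.73 ± 0.14 (SE, adjusted p = 0.000614) and by 0.55 ± 0.14 (SE, adjusted p = 0.009). PRDX6 rose from day 6 to day 7 in sgControl, by 0.32 ± 0.10 (SE, adjusted p = 0.0305), with 0.17 ± 0.10 (SE, adjusted p = 0.345) in sgRELA. PRDX1 fell from day 5 to day 6 in sgControl by 0.47 ± 0.14 (SE, adjusted p = 0.0281). The calls that leaving out 1 sample ended were PRDX3 from day 5 to day 7 in sgRELA (without day 5 replicate 1 or 3 or day 7 replicate 1 or 3, with an adjusted p of up to 0.0888), PRDX3 from day 5 to day 6 in sgControl (without day 5 replicate 3, with an adjusted p of up to 0.068), PRDX1 from day 5 to day 6 in sgControl (without day 5 replicate 3 or day 6 replicate 1 or 3, with an adjusted p of up to 0.195) and PRDX6 (without day 6 replicate 1 or 3 or day 7 replicate 1 or 3, with an adjusted p of up to 0.171). Without the 2 libraries with few detected genes, the falls in sgControl from day 5 to day 6 were -0.34 for PRDX1 and -0.23 for PRDX3, with adjusted p of 0.105 and 0.0541. With library 2 alone these falls were -0.11 for PRDX1 (adjusted p = 0.833) and -0.14 for PRDX3 (adjusted p = 0.607), and with library 1 alone -0.89 (adjusted p = 0.0511) and -0.52 (adjusted p = 0.0761). The PRDX2 rise in sgControl was 0.47 (adjusted p = 0.364) with library 1 alone. From day 5 to day 7, PRDX2 in sgRELA and PRDX3 in sgControl each lost the call in 1 of 13 alternatives. The adjusted p reached 0.289 for PRDX2 and 0.0723 for PRDX3.

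Of the 7 glutathione genes, GSR was the one called in both guides. GSR, the reductase that regenerates glutathione, had 105, 95.4 and 102 CPM on day 5, 98.5, 97.3 and 87.6 CPM on day 6 and 139, 145 and 129 CPM on day 7 in sgControl. GSR in sgRELA had 113, 119 and 114 CPM on day 5, 110.0, 106 and 105 CPM on day 6 and 156, 139 and 128 CPM on day 7. All day 7 samples lay above all other samples of their guide. GSR rose from day 6 to day 7 by 0.54 ± 0.09 (SE, adjusted p = 6.24e-05) and by 0.40 ± 0.09 (SE, adjusted p = 0.00288), and from day 5 to day 7 by 0.45 ± 0.09 (SE, adjusted p = 0.000947) and by 0.29 ± 0.09 (SE, adjusted p = 0.0349). GCLC, GCLM and GSS carry out glutathione synthesis, and GCLM, the modifier subunit of the rate-limiting ligase, rose from day 6 to day 7 in sgControl by 0.54 ± 0.18 (SE, adjusted p = 0.0443), with 0.49 ± 0.18 (SE, adjusted p = 0.085) in sgRELA. GCLC, the catalytic subunit, had day 7 to day 5 values of 0.03 ± 0.13 and 0.17 ± 0.13 (SE) and, like GSS and GPX4, the lipid peroxide reductase, passed in no comparison. GPX1 fell from day 5 to day 6 in sgControl by 0.97 ± 0.22 (SE, adjusted p = 0.00418) and rose by 0.68 ± 0.22 (SE, adjusted p = 0.0347) to day 7, with -0.22 ± 0.22 and 0.33 ± 0.22 (SE) in sgRELA. GSTP1, a glutathione transferase, rose from day 5 to day 7 in sgRELA by 0.49 ± 0.13 (SE, adjusted p = 0.0132), with 0.18 ± 0.13 (SE, adjusted p = 0.444) in sgControl. Leaving out 1 sample ended the GSR call of day 7 against day 5 in sgRELA (without day 5 replicate 1, 2 or 3 or day 7 replicate 1 or 2, with an adjusted p of up to 0.236), the GCLM call (without day 6 replicate 1 or 3 or day 7 replicate 1 or 2, with an adjusted p of up to 0.173), the GPX1 rise (without day 6 replicate 1 or 3 or day 7 replicate 1 or 2, with an adjusted p of up to 0.146) and the GSTP1 call (without day 5 replicate 2 or 3 or day 7 replicate 2, with an adjusted p of up to 0.0695). The GPX1 fall was -0.38 (adjusted p = 0.705) with library 1 alone, the GCLM rise 0.34 (adjusted p = 0.428) with library 2 alone, and the GSR rise of day 7 against day 5 in sgRELA 0.16 (adjusted p = 0.726) with library 1 alone. In sgControl that GSR rise was not called in 2 of 13 alternatives, with an adjusted p of up to 0.0563.

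The superoxide dismutases moved in both guides. SOD2, the mitochondrial enzyme and a known NF-kB target, had 56.6, 53.1 and 55.9 CPM on day 5, 46.6, 58.5 and 45.5 CPM on day 6 and 72.1, 94.7 and 81.1 CPM on day 7 in sgControl. SOD2 in sgRELA had 59.4, 60.0 and 59.1 CPM on day 5, 61.3, 60.1 and 58.0 CPM on day 6 and 88.3, 95.6 and 99.1 CPM on day 7. No day 7 sample overlapped the earlier days, and SOD2 rose from day 5 to day 7 by 0.58 ± 0.11 (SE, adjusted p = 0.000593) and by 0.66 ± 0.11 (SE, adjusted p = 0.000118). This SOD2 call was lost in 1 of 13 alternatives in sgControl, with an adjusted p of up to 0.231. SOD1, the cytosolic enzyme, fell from day 5 to day 6 by 0.58 ± 0.10 (SE, adjusted p = 0.000159) in sgControl and by 0.38 ± 0.10 (SE, adjusted p = 0.0135) in sgRELA, and rose again to day 7 by 0.78 ± 0.10 (SE, adjusted p = 4.67e-07) and by 0.51 ± 0.10 (SE, adjusted p = 0.000362). The SOD1 difference between day 7 and day 5 did not pass in either guide (0.20 ± 0.10 and 0.13 ± 0.10, SE). SOD1 had 127 ± 8.28, 84.6 ± 8.91 and 146 ± 7.17 CPM on days 5, 6 and 7 in sgControl and 129 ± 12.8, 99.2 ± 3.79 and 141 ± 6.10 CPM in sgRELA (SD, n = 3). The SOD1 fall in sgRELA was lost without day 5 replicate 2 or 3 or day 6 replicate 2, with an adjusted p of up to 0.0783. CAT, catalase, rose from day 6 to day 7 in sgControl by 0.43 ± 0.11 (SE, adjusted p = 0.00678), with 0.21 ± 0.11 (SE, adjusted p = 0.268) in sgRELA. The CAT rise was 0.27 (adjusted p = 0.334) with library 2 alone.

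TKT (transketolase), which works in the non-oxidative branch of the pentose phosphate pathway, had 141, 155 and 161 CPM on day 5, 82.7, 78.3 and 72.9 CPM on day 6 and 87.0, 86.7 and 98.8 CPM on day 7 in sgControl. TKT in sgRELA had 142, 139.8 and 135 CPM on day 5, 79.0, 76.9 and 61.8 CPM on day 6 and 92.7, 92.5 and 99.4 CPM on day 7. Every day 5 sample lay above every later sample of its guide. TKT fell from day 5 to day 6 by 0.96 ± 0.10 (SE, adjusted p = 1.55e-07) in sgControl and by 0.93 ± 0.10 (SE, adjusted p = 2.65e-07) in sgRELA. From day 5 to day 7 the TKT values were -0.74 ± 0.10 (SE, adjusted p = 3.79e-06) and -0.55 ± 0.10 (SE, adjusted p = 0.000273). The latter, in sgRELA, was not called in 1 of 13 alternatives, with an adjusted p of up to 0.22. TALDO1 (transaldolase), the other enzyme of that branch, rose from day 5 to day 7 in sgRELA by 0.67 ± 0.17 (SE, adjusted p = 0.00652), with 0.27 ± 0.17 (SE, adjusted p = 0.341) in sgControl. The TALDO1 call was lost in 2 of 13 alternatives, with an adjusted p of up to 0.137. PGD, an NADPH-producing enzyme, rose from day 6 to day 7 in sgControl by 0.29 ± 0.09 (SE, adjusted p = 0.0205), with 0.24 ± 0.09 (SE, adjusted p = 0.0677) in sgRELA. The PGD call was lost without day 6 replicate 1 or day 7 replicate 2 or 3, with an adjusted p of up to 0.0774.

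Both heme and iron genes with usable counts fell. FTL had 91.5, 96.6 and 124 CPM on day 5, 98.6, 94.5 and 97.2 CPM on day 6 and 76.6, 70.4 and 82.4 CPM on day 7 in sgControl. FTL in sgRELA had 101, 121 and 111 CPM on day 5, 90.6, 88.2 and 78.9 CPM on day 6 and 80.5, 71.8 and 69.8 CPM on day 7. Day 5 samples lay above all day 7 samples in each guide, and FTL fell from day 5 to day 7 by 0.44 ± 0.11 (SE, adjusted p = 0.00682) and by 0.58 ± 0.11 (SE, adjusted p = 0.000498). BLVRB, a biliverdin reductase, had 10.0, 14.3 and 12.4 CPM on day 5, 12.1, 14.8 and 14.4 CPM on day 6 and 5.80, 5.18 and 6.59 CPM on day 7 in sgControl. BLVRB in sgRELA had 11, 16.9 and 11.3 CPM on day 5, 7.85, 11.4 and 11.8 CPM on day 6 and 6.42, 8.28 and 5.75 CPM on day 7. Again no day 7 sample reached a day 5 sample, and BLVRB fell from day 5 to day 7 by 1.06 ± 0.25 (SE, adjusted p = 0.00342) and by 0.94 ± 0.25 (SE, adjusted p = 0.00957). FTL also fell from day 6 to day 7 in sgControl by 0.34 ± 0.11 (SE, adjusted p = 0.0381) and from day 5 to day 6 in sgRELA by 0.36 ± 0.11 (SE, adjusted p = 0.0432), and each of these calls was lost in 5 of 6 fits that left out 1 sample, with adjusted p of up to 0.176 and 0.196. The FTL fall from day 6 to day 7 in sgControl was -0.20 (adjusted p = 0.426) with library 2 alone and -0.54 (adjusted p = 0.0972) with library 1 alone. The FTL call of day 7 against day 5 in sgControl was lost without day 5 replicate 3 or day 7 replicate 2, with an adjusted p of up to 0.105. The BLVRB call in sgRELA was lost without day 5 replicate 2 or day 7 replicate 3, with an adjusted p of up to 0.0982, and that in sgControl without the 2 libraries with few detected genes (-0.76, adjusted p = 0.0805). FTH1 had 0.921, 0.366 and 0.345 CPM on day 5, 0.834, 0.447 and 0.443 CPM on day 6 and 0.0828, 0.171 and 0.197 CPM on day 7 in sgControl. FTH1 in sgRELA had 0.122, 0.800 and 0.413 CPM on day 5, 0.219, 0.134 and 1.10 CPM on day 6 and 0.355, 0.0812 and 0.587 CPM on day 7. These values rest on 2 to 21 counts per sample and on the shared reads described above, and no FTH1 comparison passed. HMOX1 counts were 0 to 4 per RNA sample.

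In the detoxification group, EPHX1 and UGDH were highest on day 6 in both guides. UGDH, which makes the sugar donor for glucuronidation, rose from day 5 to day 6 by 1.04 ± 0.17 (SE, adjusted p = 0.000116) in sgControl and by 0.89 ± 0.17 (SE, adjusted p = 0.00083) in sgRELA. UGDH had 34.6 ± 8.47, 71.3 ± 12.6 and 44.8 ± 11.2 CPM on days 5, 6 and 7 in sgControl and 37.5 ± 1.99, 69.6 ± 9.40 and 41.8 ± 5.81 CPM in sgRELA (SD, n = 3). It fell from day 6 to day 7 by 0.67 ± 0.17 (SE, adjusted p = 0.00554) and by 0.73 ± 0.17 (SE, adjusted p = 0.00294). EPHX1, the microsomal epoxide hydrolase, had 22.4, 21.0 and 18.4 CPM on day 5, 35.9, 27.9 and 28.6 CPM on day 6 and 14.2, 21.9 and 16.3 CPM on day 7 in sgControl. EPHX1 in sgRELA had 48.6, 45.1 and 59.6 CPM on day 5, 79.7, 78.2 and 83.7 CPM on day 6 and 49.3, 51.1 and 50.6 CPM on day 7. Day 6 was above days 5 and 7 without overlap in each guide. EPHX1 rose from day 5 to day 6 by 0.58 ± 0.15 (SE, adjusted p = 0.0126) and by 0.66 ± 0.15 (SE, adjusted p = 0.00421) and fell to day 7 by 0.82 ± 0.15 (SE, adjusted p = 0.000197) and by 0.68 ± 0.15 (SE, adjusted p = 0.00155). The EPHX1 rise in sgControl was lost without day 5 replicate 3 or day 6 replicate 1, with an adjusted p of up to 0.0908, and the UGDH fall in sgControl without day 6 replicate 2 or day 7 replicate 2, with an adjusted p of up to 0.0599. In sgRELA the EPHX1 rise and fall were each not called in 2 of 13 alternatives, with adjusted p of up to 0.188 and 0.075. The UGDH rise and fall in sgRELA were each not called in 1 of 13, with adjusted p of up to 0.0728 and 0.252. NQO1 had 2.85, 2.74 and 3.75 CPM on day 5, 5.20, 3.31 and 2.97 CPM on day 6 and 1.86, 1.58 and 6.24 CPM on day 7 in sgControl. NQO1 in sgRELA had 6.28, 3.96 and 4.57 CPM on day 5, 3.86, 1.97 and 3.40 CPM on day 6 and 2.52, 2.03 and 3.27 CPM on day 7. No NQO1 comparison passed, and its log2 fold changes from day 5 to day 7 were 0.05 ± 0.44 (SE, adjusted p = 0.966) and -0.92 ± 0.44 (SE, adjusted p = 0.198). The transporters ABCC1 and ABCC4, which export glutathione conjugates and other organic anions, passed in no comparison.

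Between day 7 and day 5, 10 of the 37 genes passed in both guides in 1 direction, beside 8.11% of all genes. TXN, TXNRD1, PRDX1, PRDX2, PRDX3, GSR and SOD2 were higher on day 7 and TKT, FTL and BLVRB lower. Between day 6 and day 5, 5 genes were called in both guides, beside 4.3% of all genes: PRDX3, SOD1 and TKT were lower and EPHX1 and UGDH higher. Between day 7 and day 6, 9 were, beside 8.73%, with GSR, TXN, TXNRD1, PRDX1, PRDX3, SOD1 and SOD2 higher and EPHX1 and UGDH lower. These shares were likewise not matched for count level. The 2 guides use separate RNA samples. SQSTM1, GSTP1 and TALDO1 passed between day 7 and day 5 in sgRELA only, but the test of the difference between guides gave 0.18 ± 0.25 (SE, adjusted p = 1.00), 0.31 ± 0.19 (SE, adjusted p = 1.00) and 0.40 ± 0.24 (SE, adjusted p = 1.00). The day course was not shown to differ between guides for any of the 37 genes. The interaction of guide and day was called for 0 of them, beside 0.00363% of all genes, with 2 (TXNRD1 and PRDX3) at an unadjusted p under 0.05, and the difference in day 7 against day 5 for 0, beside 0.0%, with 1. DESeq2 also called 0 in both tests.

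**Figure D3:**
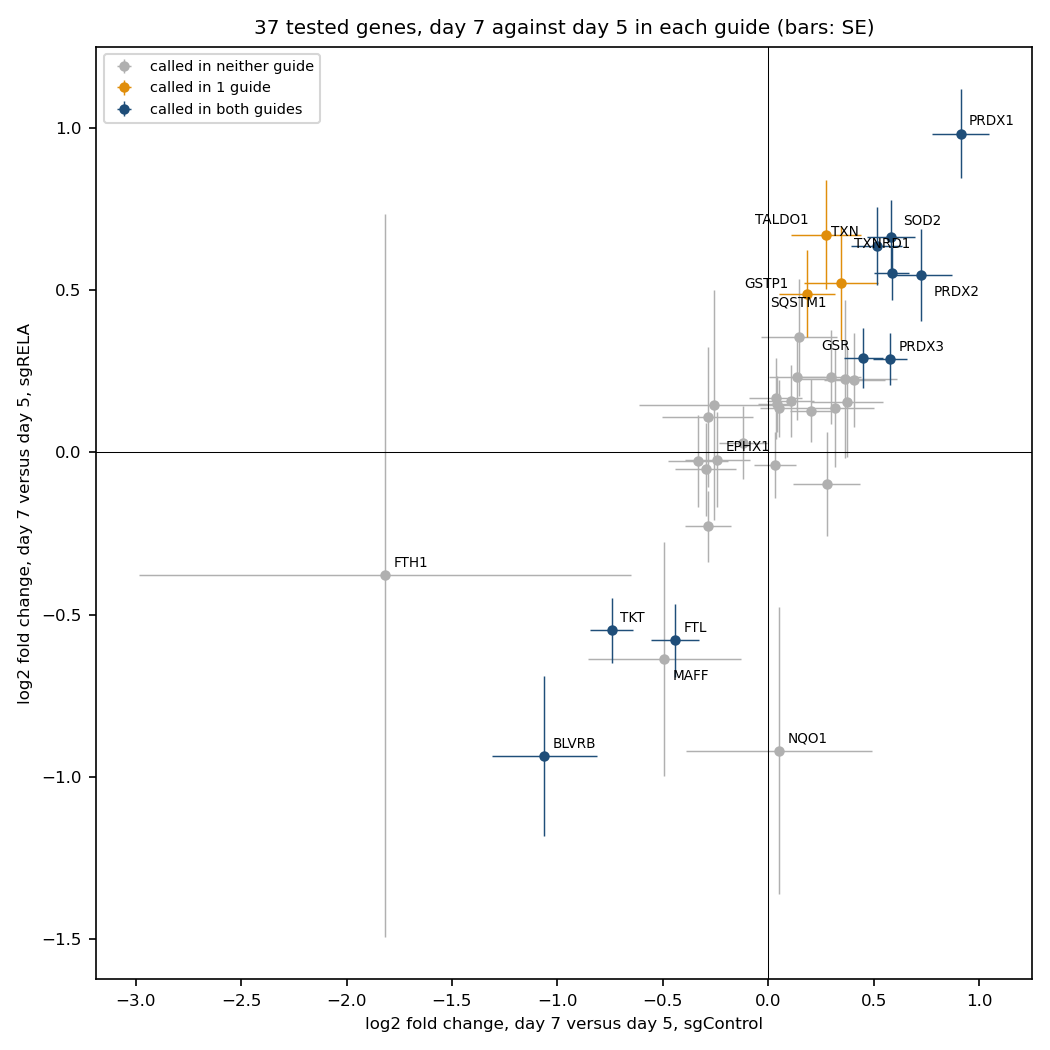
Log2 fold change between day 7 and day 5 in sgControl (x axis) and sgRELA (y axis) for the 37 tested genes, with standard errors as bars. Blue points were called in both guides, orange in sgRELA alone and grey in neither, and PRDX1 lies farthest to the upper right.

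The second set of comparisons asked what the RELA guide changed. EPHX1 was higher with sgRELA on each day and was the one gene of the 37 that passed. The count was 1 of 37 on day 5, beside 0.138% of all genes, 1 on day 6, beside 0.214%, and 1 on day 7, beside 0.0907%. With counts added over the days for each guide and replicate number, it was again 1 of 37, beside 0.363% of 28888 genes. The gene list, EPHX1 included, was chosen with earlier results of these data known, so these shares are no measure of a surplus. The EPHX1 values given above lay between 14.2 and 35.9 CPM in sgControl and between 45.1 and 83.7 CPM in sgRELA, so that the lowest sgRELA sample of any day exceeded the highest sgControl sample. The log2 fold change was 1.31 ± 0.15 (SE, adjusted p = 3.45e-06) on day 5, 1.39 ± 0.15 (SE, adjusted p = 1.14e-06) on day 6 and 1.53 ± 0.15 (SE, adjusted p = 1.98e-07) on day 7. Added over days, EPHX1 had 23.5, 23.5 and 20.8 CPM in sgControl and 58.5, 57.4 and 63.0 CPM in sgRELA. Its log2 fold change was 1.40 ± 0.08 (SE, adjusted p = 2.59e-10), a 2.64-fold difference. The call held on every day and over days in each fit that left out 1 sample or sum, and the value over days ranged from 1.33 to 1.46 over 14 alternatives. EPHX1 lies on chromosome 1 from 225810092 to 225845563, plus strand, in GENCODE v29 on GRCh38. The nearby genes SRP9 and TMEM63A had log2 fold changes over days of -0.02 and 0.06, with adjusted p of 0.972 and 0.884. CD79A, a B-cell receptor gene, was also higher with sgRELA (log2 fold change 1.50 ± 0.08, SE, adjusted p = 3.88e-11), while the B-cell markers MS4A1 and CD79B stayed at or below 0.640 CPM in every sample. The summed level of the 3 was 16.5 to 26.2 CPM in sgControl and 48.4 to 62.6 CPM in sgRELA, and its part in the EPHX1 difference was not tested.

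For the other 36 genes no guide effect passed. SOD2 had 59.0, 69.0 and 61.4 CPM in sgControl and 69.9, 72.1 and 72.0 CPM in sgRELA, with all sgRELA sums above the sgControl sums, and its log2 fold change was 0.18 ± 0.07 (SE, adjusted p = 0.558). GSR had 0.12 ± 0.05 (SE, adjusted p = 0.671) and PRDX3 0.10 ± 0.05 (SE, adjusted p = 0.699). NFE2L2 had 0.06 ± 0.06, KEAP1 -0.11 ± 0.08, BACH1 0.04 ± 0.05 and NQO1 0.08 ± 0.25 (SE). FTH1, the other known NF-kB target, had -0.01 ± 0.61, an error too wide to show a difference. The median over the 37 genes was 0.01, beside -0.0019 for all genes, and 4 genes had an unadjusted p under 0.05. In simulated counts of this design, the comparison over days recovered 48% of genes changed by 0.5 log2 units, and the single comparison of day 5 recovered 12%. The changed genes were drawn from genes of low as well as high counts, and differences of that size were often missed over this mix. These shares do not give the recovery for the better counted of the 37 genes.

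**Figure D4:**
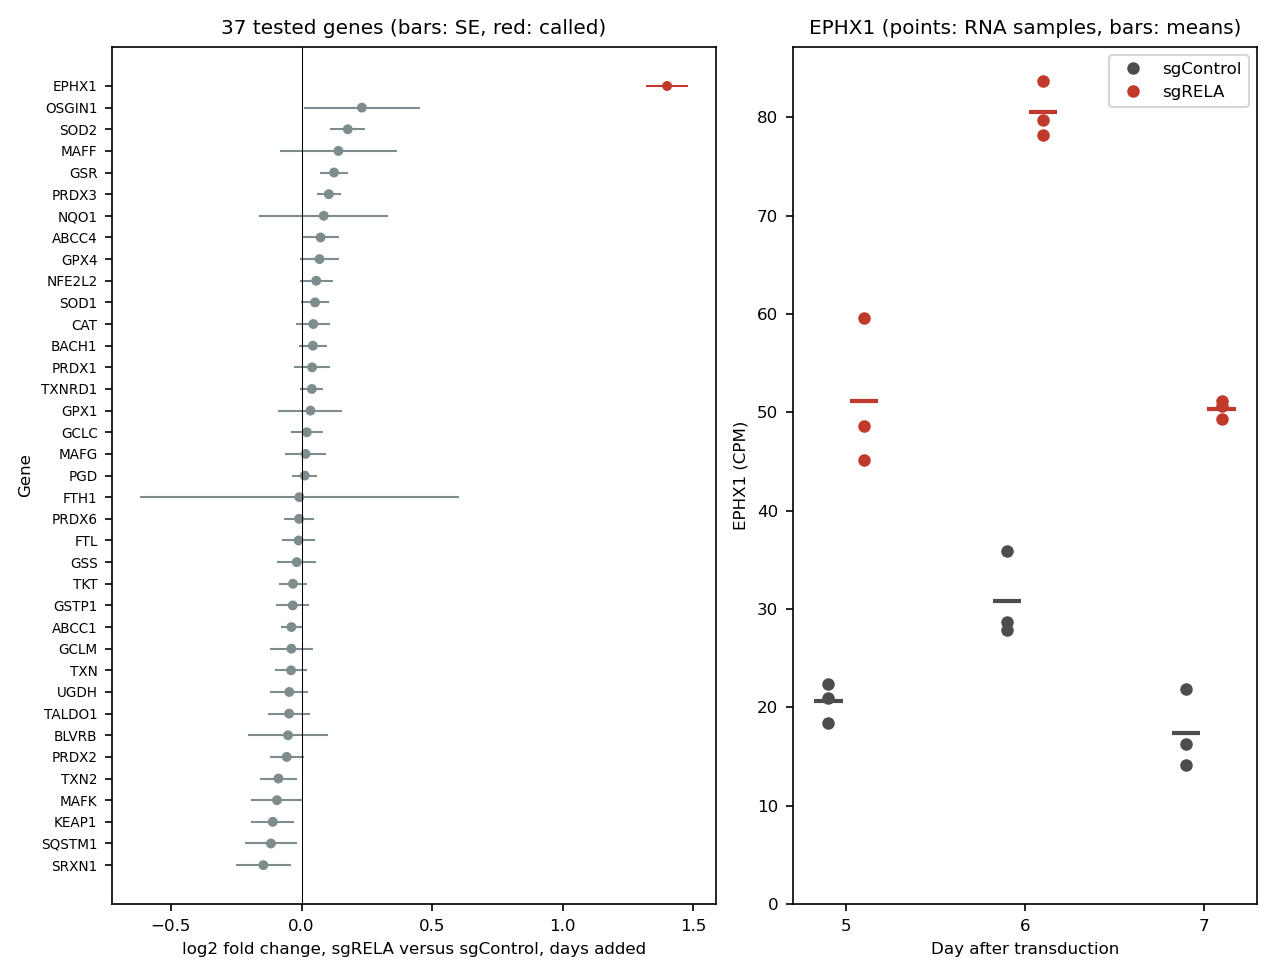
Left, log2 fold change of sgRELA against sgControl with days added for the 37 tested genes, ranked, with standard errors as bars and the called gene in red. Right, EPHX1 in CPM by day, each point 1 RNA sample and each short bar the mean of 3, with all sgRELA samples above all sgControl samples.

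Another 97 genes of the same pathways were listed beside the 41, and 86 of them were tested. Between day 7 and day 5, 24 passed in sgControl (11 higher, 13 lower) and 23 in sgRELA (11 higher, 12 lower), 18 of them in both guides with the same sign, 8 higher and 10 lower. Of all genes, 13% passed in sgControl, 12.4% in sgRELA and 8.11% in both with the same sign. All 5 of the 21 tested glutathione genes that passed in both guides fell. SLC7A11, the cystine importer, had 109, 79.1 and 86.0 CPM on day 5, 49.9, 43.2 and 39.4 CPM on day 6 and 10.1, 7.96 and 12.2 CPM on day 7 in sgControl. SLC7A11 in sgRELA had 102, 102 and 101 CPM on day 5, 60.9, 53.6 and 56.1 CPM on day 6 and 15.5, 16.6 and 10.8 CPM on day 7. Its level was lower on each later day with no overlap, and the log2 fold changes of day 7 against day 5 were -3.18 ± 0.17 (SE, adjusted p = 7.05e-14) and -2.83 ± 0.16 (SE, adjusted p = 4.15e-13). SLC3A2, its partner chain, fell as well (log2 -1.41 ± 0.10 and -1.62 ± 0.10, SE), and so did CHAC1, which degrades glutathione (log2 -4.37 ± 0.47 and -4.58 ± 0.48, SE), with an adjusted p of at most 7.95e-08 in all 4 tests. GCLC, GCLM and GSS, which build glutathione from cysteine, did not pass in this comparison.

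In the remaining lists each pair of values gives the log2 fold change from day 5 to day 7 with its SE, first in sgControl and then in sgRELA. The share of all genes called in both guides with the same sign, 8.11%, stands beside the count of each list. In the NADPH list of 13 tested genes, 5 were called in both guides, 3 higher and 2 lower. MTHFD2, the mitochondrial folate enzyme, fell (log2 -1.16 ± 0.09 and -1.23 ± 0.09, SE), while MTHFD1, its cytosolic counterpart, and RPIA, of the pentose phosphate pathway, rose (log2 0.83 ± 0.10 and 0.66 ± 0.10, and log2 0.56 ± 0.14 and 0.58 ± 0.14). Of 13 further thioredoxin and peroxiredoxin genes 1 was called in both guides, SESN2 (sestrin 2), which fell (log2 -0.98 ± 0.18 and -1.29 ± 0.18). Of 11 further regulators 5 were, 4 higher and 1 lower: RBX1, a subunit of the KEAP1 ubiquitin ligase, and PGAM5, a KEAP1-binding mitochondrial phosphatase, rose (log2 0.87 ± 0.15 and 0.57 ± 0.15, and log2 0.67 ± 0.12 and 0.72 ± 0.12), and CREBBP, a coactivator of NRF2, fell (log2 -0.60 ± 0.11 and -0.57 ± 0.11). Of 13 further heme and iron genes, TFRC, the transferrin receptor, rose (log2 0.93 ± 0.08 and 0.66 ± 0.08) and PCBP2, an iron chaperone, fell (log2 -0.36 ± 0.06 and -0.26 ± 0.06). None of the 15 further tested detoxification genes was called in both guides. The RBX1 call in sgRELA was lost without day 5 replicate 1, with an adjusted p of up to 0.0861, and the RPIA call in sgControl without day 7 replicate 1, with an adjusted p of up to 0.108. With library 1 alone the sgControl values were 0.55 for RBX1, 0.43 for PGAM5 and 0.23 for RPIA (adjusted p = 0.211, 0.322 and 0.712). With library 2 alone RPIA in sgControl was 0.89 (adjusted p = 0.00414) and RBX1 in sgRELA 0.38 (adjusted p = 0.395). With the guide, 1 of the 86 passed over days, beside 0.363% of all genes. It was SESN3, chosen after its values were seen, at 0.49 ± 0.06 (SE, adjusted p = 4.73e-05).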

How the data were processed

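RNA of 18 samples was measured by RamDA-seq in 36 libraries. The authors deposited 1 table of raw counts per gene and library. Per the submitters' processing notes, cutadapt 1.18, STAR 2.7.9a and GRCh38 were used. The counting tool, its annotation and its treatment of strand and of reads shared by genes are not given in the sources used here. Of the 74628 gene identifiers, 57693 matched a symbol in a gene name table; lengths and positions are from GENCODE v29.

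Counts of the 2 libraries of a sample were added and fitted with edgeR 4.0.16 (R 4.3.3, limma 3.58.1): TMM, filterByExpr with a minimum count of 10, the quasi-likelihood test, and 6 group means. P-values were adjusted by Benjamini-Hochberg over all 27553 genes tested, and calls needed an adjusted p below 0.05. Guides were also compared with the 3 days added (3 against 3 sums, 28888 genes). All adjusted p-values in the text are from edgeR unless DESeq2 1.42.0 is named. They set a difference between groups against the spread between these samples. Counts are of reads without molecular identifiers, so no interval of counting error is given.

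The 41 genes, the other lists and the tests were chosen with earlier results of these data known. Values per sample are given for genes called between day 7 and day 5 in both guides and for NFE2L2, KEAP1, BACH1, HMOX1, NQO1, SOD2, EPHX1, FTH1 and SLC7A11. Up to 3 genes of each other list are named, by smallest p in sgControl. The procedure was tested on simulated data: of 200 genes changed between day 7 and day 5 in sgControl it recovered 58%, with 4.13% false calls (26352 genes). Alternatives were DESeq2, other scaling, no filter, a fold threshold, a replicate block, single libraries and left-out samples.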

Additional observations from a re-analysis of the deposited data

Results flagged for a closer look

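Among 96 searches over the 6 libraries of each group for a library far from the rest, 5 stood apart, where chance would mark about 1 in 20. In sgControl on day 6, library 1 of replicate 1 had 197.9 CPM of PRDX2, with the other 5 libraries between 64.2 and 85.9 CPM. The same library had 115.6 CPM of TKT, with the others between 63.4 and 79.1 CPM, and 62.7 CPM of KEAP1, with the others between 28.2 and 39.9 CPM. PRDX1 stood at 53.6 CPM in library 1 of sgControl day 5 replicate 3, with the others between 36.2 and 39.9 CPM. In sgControl on day 7 it stood at 63.0 CPM in library 2 of replicate 3, with the others between 76.8 and 82.9 CPM.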

How the results depend on the processing

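Library replicate 1 alone gave the fewest calls among the 37 genes, with 3, 8 and 3 in sgControl (day 6 against 5, 7 against 6, 7 against 5) and 1, 4 and 4 in sgRELA. Library replicate 2 alone gave 8 in sgRELA for day 7 against 6. A fold threshold of 0.5 left 5 (sgControl) and 3 (sgRELA) for day 6 against 5. No pairing of the samples by replicate number was detected (correlations of deviations from -0.143 to 0.0746 over 45 same-number pairs, 0 over 0.1). The labels do not say whether a replicate number joins days or guides, and low correlations cannot exclude it. With a replicate block the counts were 9, 16 and 10 in sgControl, 5, 13 and 13 in sgRELA and 1 for the guide in each of its 4 comparisons. EPHX1 kept its guide call under every alternative run. Over all genes, library replicate 1 alone called 430, 1879 and 820 in sgControl (2445, 4012 and 3585 in the tests reported), 196, 961 and 669 in sgRELA (1904, 3368 and 3420) and 42 for the guide over days, where DESeq2 called 235 (105). For the guide by day the counts were 38, 59 and 25, with lowest values of 15, 15 and 13 and highest of 73, 112 and 55. With no filter the interaction was called for 24 genes (1) and the difference in day 7 against 5 for 9 (0).

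Of 1485 alternative values for 114 gene results, 1285 kept direction and call, 175 lost the call, 1 gained it (NFE2L2) and 24 changed sign, none of them called. The cause was not tested. KEAP1 over days was 0.000184 with library 2 alone. BACH1 from day 5 to day 7 in sgRELA was -0.18 with library 2 alone and -0.036 to 0.10 with 1 sample left out. BACH1 over days was -0.020 with library 1 alone and -0.0042 without the 2 libraries with few detected genes. NQO1 from day 5 to day 7 in sgControl was -0.056 with the replicate block, -0.75 with library 2 alone, -0.23 without those libraries and -0.86 to 0.38 with 1 sample left out. NQO1 over days was -0.17 with library 2 alone, -0.021 without those libraries and -0.086 to 0.32 with 1 sum left out. EPHX1 from day 5 to day 7 in sgRELA ranged from -0.11 to 0.11 with 1 sample left out. FTH1 in the same comparison ranged from -1.01 to 0.33, and over days it was 0.22 without those libraries, 0.20 as the mean of the 3 days and -0.51 to 0.34 with 1 sum left out. FTH1, NQO1 and HMOX1 are limited by low counts.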
